A study of Mus musculus with 4 samples.

Results

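The proteasome genes on these kidney arrays were taken as all genes whose symbol joins Psm, one of the letters a to g and a number, read from probe sets annotated to that gene alone. The rule found 49 genes with 103 probe sets, among 18193 genes with 34945 probe sets. By role, 14 encode constitutive subunits of the core particle, 17 encode subunits of the regulatory cap, 3 encode immunoproteasome subunits, 7 encode assembly factors, and 4 encode activators or an inhibitor. Psma8 and Psmb11 are subunits of restricted tissues. Psmc3ip and Psme3ip1 carry the name of a partner and are not subunits.

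The arrays came from kidneys of male C57Bl/6 mice, either wild type or of the genotype labelled Tet2KO. Mice of each genotype had sham surgery or 60 min of renal ischemia followed by reperfusion for 24 h. Each of the 4 groups was 1 Affymetrix array hybridised with RNA pooled from 3 mice, so no spread between mice exists and no p-value is given. The labels do not say which part of Tet2, an enzyme gene of DNA demethylation, was deleted, in which cells, or how old the mice were. The Tet2 log2 signals of its probe sets differed by -0.085 and 0.41 between the knockout-labelled and the wild-type sham array and by -0.41 and -0.70 between the ischemia-reperfusion arrays. Because the Tet2 probe sets were not both lower in the knockout-labelled sham array, the genotype is called knockout-labelled here. A probe set outside the deleted part would check nothing.

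The proteasome is the large protease that degrades most proteins tagged with ubiquitin. Its barrel-shaped core is built of stacked rings of alpha and beta subunits, and Psmb5, Psmb6 and Psmb7 carry the active sites. The cap recognises ubiquitin chains, and its base, a ring of ATPases with a few other subunits, unfolds the substrate while its lid removes the ubiquitin. Interferon induces Psmb8, Psmb9 and Psmb10, which replace the constitutive active subunits to form the immunoproteasome and change the peptides made for MHC class I. When proteasome activity falls short, the transcription factor NRF1, encoded by Nfe2l1, induces many proteasome genes together through antioxidant response elements in their promoters. Reabsorbing kidney tubules handle much protein and use the proteasome beside their lysosomes.

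Psmb5 and Psmb6 are active subunits with a match to the core of the antioxidant response element. Psmb10 and Psmd11 had no such match. In the knockout-labelled mice they had the highest response of the inducible subunits and of the cap. Upstream sequences of these 4 members are shown. Each is the 250 bases before the RefSeq transcription start on GRCm38.p6, written 5′ to 3′ along the gene, with the match to TGACNNNGC in capitals. Psmb5 lies at chr14:54617996-54618245 on the minus strand, Psmb6 at chr11:70525107-70525356 on the plus strand, Psmb10 at chr8:105938393-105938642 on the minus strand and Psmd11 at chr11:80428365-80428614 on the plus strand.
Psmb5: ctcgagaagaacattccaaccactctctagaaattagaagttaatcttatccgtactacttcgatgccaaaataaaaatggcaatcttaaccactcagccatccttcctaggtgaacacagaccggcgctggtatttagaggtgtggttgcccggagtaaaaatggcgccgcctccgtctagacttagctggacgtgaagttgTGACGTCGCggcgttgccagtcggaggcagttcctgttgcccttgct
Psmb6: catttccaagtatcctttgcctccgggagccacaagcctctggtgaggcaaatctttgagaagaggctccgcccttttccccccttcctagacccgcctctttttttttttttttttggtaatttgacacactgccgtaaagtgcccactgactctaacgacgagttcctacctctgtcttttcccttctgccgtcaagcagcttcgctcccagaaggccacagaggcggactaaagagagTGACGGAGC
Psmb10: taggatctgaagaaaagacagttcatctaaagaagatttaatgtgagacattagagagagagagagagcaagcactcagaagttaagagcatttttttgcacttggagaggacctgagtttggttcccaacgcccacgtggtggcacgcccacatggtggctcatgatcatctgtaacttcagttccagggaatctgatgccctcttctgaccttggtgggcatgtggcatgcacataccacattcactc
Psmd11: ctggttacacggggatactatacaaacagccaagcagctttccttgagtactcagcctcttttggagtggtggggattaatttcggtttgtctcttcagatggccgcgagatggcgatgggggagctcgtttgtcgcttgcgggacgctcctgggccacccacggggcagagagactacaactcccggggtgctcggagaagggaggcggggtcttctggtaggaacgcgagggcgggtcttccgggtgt
The match began 47 bases before the start of Psmb5 and 9 bases before that of Psmb6.

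A start was listed for 41 of the 49 members. TGACNNNGC, searched on both strands, was found in 5 of them (12.2%), namely Psmb5, Psmb6, Psmc6, Psmd12 and Psmd9, against 11.5% of 27025 genes. The CCAAT box, searched as CCAAT on both strands, was found in 16 of 41 (39.0%), against 37.5% of genes. The core of the interferon-stimulated response element was found on either strand in 3 of 41 (7.32%), namely Psmb3, Psmd4 and Psmd9, against 3.46% of genes. None of the 3 motifs contains another. In these windows the members held the first 2 motifs about as often as genes at large. The windows hold no sequence beyond 250 bases and none after the start.

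Values below are log2 signals. Each is set only against the same gene in another array, because signals of different probe sets are not on one scale. The summed signals of marker lists are an exception, because they add probe sets of different genes. A log2 ratio is the difference of 2 such signals, and a gene counted as higher or lower when the ratio reached 1.5-fold, 0.585 on the log2 scale. Signals under a floor of 5.72 were set to it. Of the 49 members 47 were at or over the floor in all 4 arrays, and Psma8 and Psmb11, known from testis and thymus, were below it in all 4. The log2 signals of Psma8 were 4.05, 4.22, 3.98 and 4.22, and those of Psmb11 4.99, 4.64, 4.73 and 4.73, given first for the wild-type sham array, then for wild-type ischemia-reperfusion, and then for the sham and the ischemia-reperfusion array labelled knockout. All signals that follow are in this order.

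Proteasome genes were slightly and broadly higher after ischemia-reperfusion in both genotypes. In wild type 45 of 47 members had a log2 ratio above 0, with a median of 0.31, a range from -0.19 for Psmd9 to 0.85 for Psmb10, and 2 members higher and 0 lower at 1.5-fold. Of all genes, 52.5% had a ratio above 0, 5.98% passed 1.5-fold upward and 6.29% downward, and the median was 0.017. In the knockout-labelled pair 39 of 47 members had a ratio above 0, with a median of 0.32, a range from -0.58 for Psmg2 to 1.33 for Psmb10, and 11 higher and 0 lower. There 48.2% of all genes had a ratio above 0, the median was -0.017, 14.6% were higher and 14.5% lower. The members' share higher at 1.5-fold was 4.26% in wild type, near that of all genes, and 23.4% in the knockout-labelled pair. The 11 members became 6 when a gene was read as the median over all its probe sets or from plain probe sets only. The share of all genes was not counted under these readings. The members' higher share is therefore not shown for them and depends on the probe set read.

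**Figure D1:**
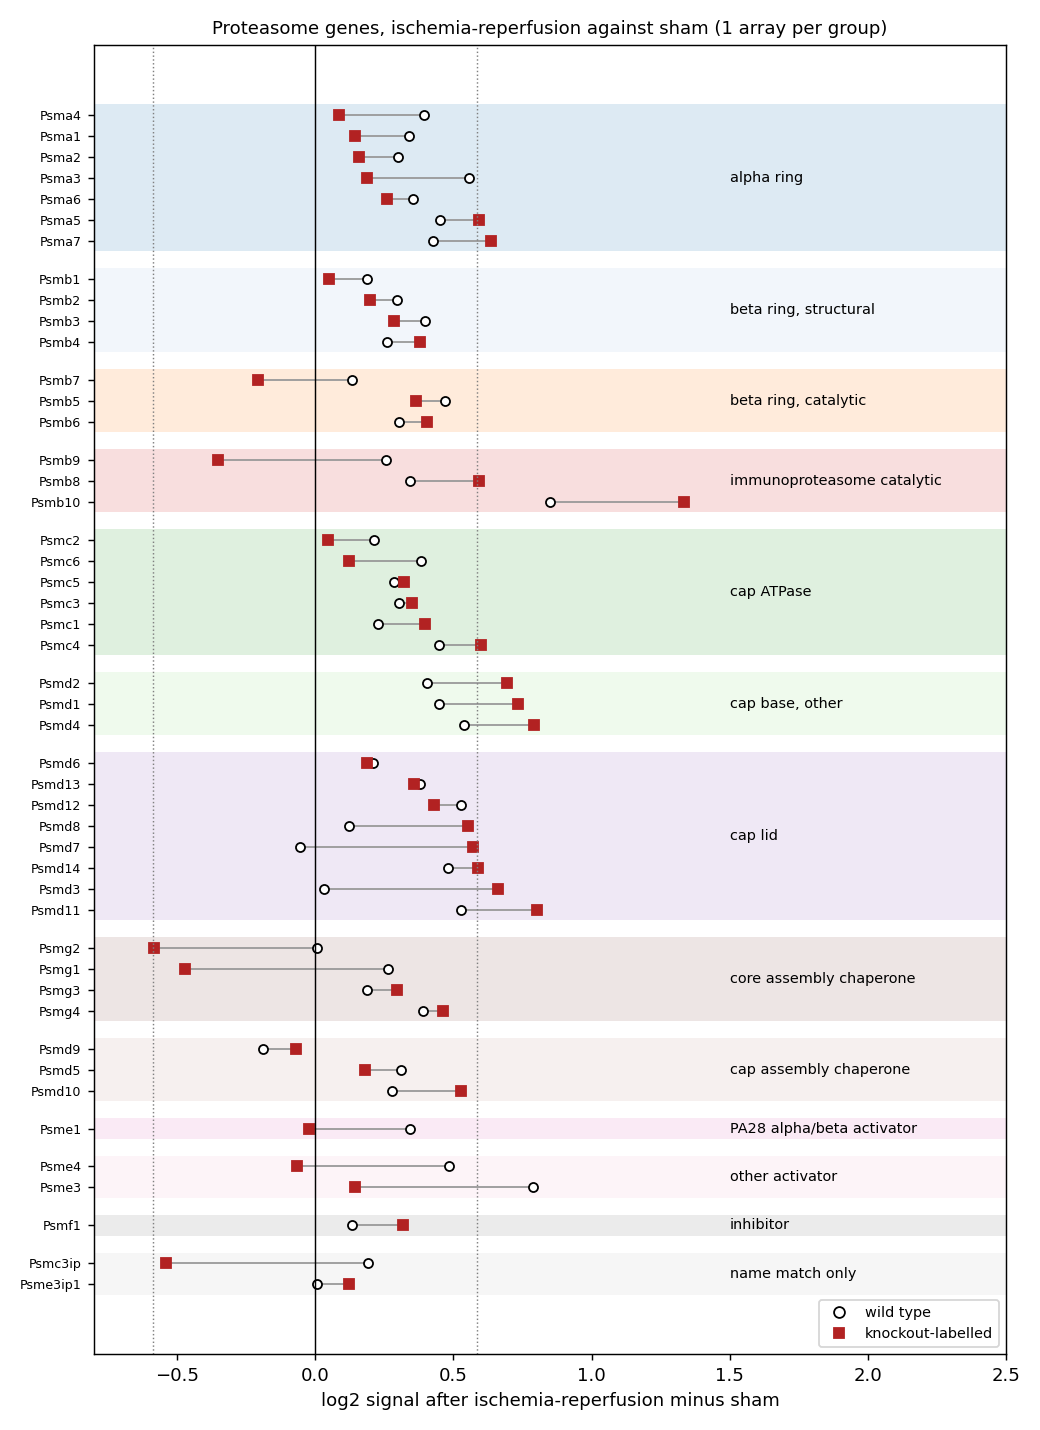
Log2 ratio of ischemia-reperfusion over sham for each of the 47 measured proteasome genes, grouped by role, in wild type and in the knockout-labelled pair, with 1 array per group. Almost all core and cap genes lie to the right of 0 in both genotypes, and the knockout-labelled values reach from -0.58 for Psmg2 to 1.33 for Psmb10.

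Probe sets of the same member differed in their log2 ratio with an SD of 0.22 in wild type and 0.34 in the knockout-labelled pair. This SD holds differences between probe sets on the same arrays and none between mice, pools or arrays. Both ischemia-reperfusion arrays were above both sham arrays for 34 of 47 members and for 27 of the 31 core and cap genes, against 27.4% of all genes. The highest of the 4 arrays was the knockout-labelled ischemia-reperfusion array for 27 members and its wild-type counterpart for 17. A sham array was highest for only 3 members, each time the knockout-labelled one. The lowest was the sham array of wild type for 32 members and that of the knockout-labelled mice for 9. For 5 members the lowest was the knockout-labelled ischemia-reperfusion array, and for 1 the wild-type one.

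The members have high signals, so the genes with a mean log2 signal of 10 or more were set beside them, a choice made after the data were seen. These 2983 genes include 33 of the members. Their median ratio was 0.030 in wild type, with 53.9% above 0, and -0.093 in the knockout-labelled pair, with 44.1% above 0. The 33 members among them had medians of 0.34 in wild type, with 32 above 0, and 0.35 in the knockout-labelled pair, with 29 above 0.

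The 7 alpha subunits, which form the outer rings and the gate of the core, were all above 0 in both genotypes on the probe sets read. Their median ratio was 0.39 in wild type and 0.19 in the knockout-labelled pair. Psma7 had log2 signals of 11.12, 11.55, 11.18 and 11.82, and was 1.34-fold and 1.56-fold higher after ischemia-reperfusion in the 2 genotypes. Psma5 had 11.34, 11.80, 11.42 and 12.02, and was 1.37-fold and 1.51-fold higher. For both genes each ischemia-reperfusion array was above each sham array. On the probe sets read, these were the only 2 of the 14 core genes past 1.5-fold in the knockout-labelled pair. Psma4, at the low end of the alpha subunits there, had 12.18, 12.58, 12.19 and 12.27, with ratios of 0.39 in wild type and 0.085 in the knockout-labelled pair. Psma3 had the highest wild-type ratio of the core, 0.55, against 0.19 in the knockout-labelled pair. The remaining alpha ratios in the knockout-labelled pair lay between those of Psma4 and Psma5, with Psma1 at 0.14, Psma2 at 0.16 and Psma6 at 0.26. Another Psma6 probe set, of higher signal, gave 0.62 there, past 1.5-fold. Other Psma1 probe sets over the floor, of lower signal, gave 0.76 and 0.035.

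The 4 beta subunits without an active site were also all above 0 in both genotypes on the probe sets read. Psmb4 had log2 signals of 12.56, 12.82, 12.68 and 13.06 and Psmb1 had 11.91, 12.10, 12.00 and 12.05, the highest and the lowest of them in the knockout-labelled response, with ratios of 0.38 and 0.05. For Psmb2 the ratios were 0.30 in wild type and 0.20 in the knockout-labelled pair. For Psmb3 they were 0.40 and 0.29, but a second Psmb3 probe set gave 0.92 and 1.53. That second probe set had the largest response of any proteasome probe set at or over the floor in all 4 arrays, so the size for Psmb3 depends on the probe set.

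Of the active subunits, Psmb5 and Psmb6 were higher after ischemia-reperfusion in both genotypes, while Psmb7 was above sham in wild type and below it in the knockout-labelled pair. Psmb5, the chymotrypsin-like subunit and the main target of proteasome inhibitor drugs, had 11.80, 12.27, 11.92 and 12.28, with ratios of 0.47 and 0.37. Psmb6, the caspase-like subunit, had 11.64, 11.95, 11.61 and 12.02, with ratios of 0.30 and 0.40. Psmb7, the trypsin-like subunit, had 11.63, 11.76, 11.64 and 11.43, with ratios of 0.13 and -0.21. For Psmb5 and Psmb6 both ischemia-reperfusion arrays were above both sham arrays, while for Psmb7 the knockout-labelled ischemia-reperfusion array was the lowest of the 4. On the probe sets read, Psmb7 was the single core gene with a ratio below 0 in either genotype. None of the 3 reached 1.5-fold.

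**Figure D2:**
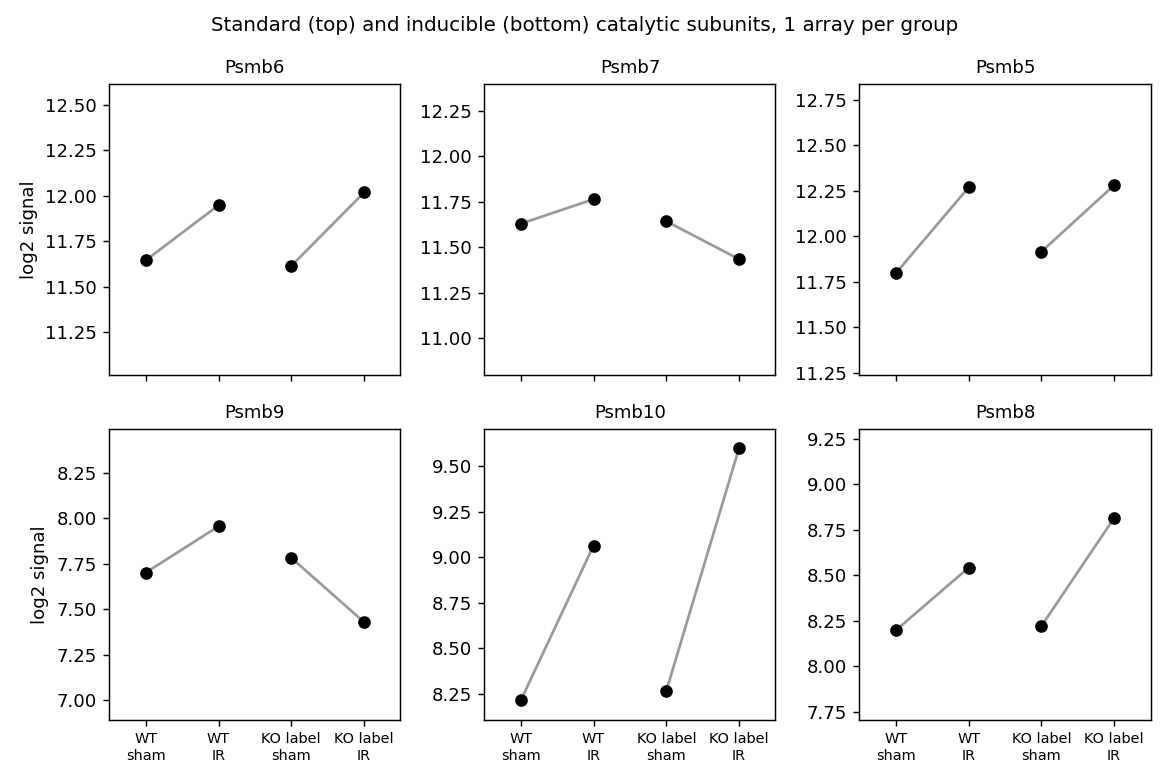
Log2 signals of the constitutive active subunits Psmb5, Psmb6 and Psmb7 and of their inducible counterparts Psmb8, Psmb9 and Psmb10 in the 4 arrays, 1 point per array, with lines joining sham to ischemia-reperfusion (IR) of a genotype and a scale of its own for each gene. Psmb10 goes from 8.21 to 9.06 in wild type and from 8.27 to 9.60 in the knockout-labelled pair, while Psmb7 and Psmb9 are lowest in the knockout-labelled ischemia-reperfusion array.

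The 3 inducible counterparts did not all differ in the same direction. Psmb10, the inducible counterpart of Psmb7, had 8.21, 9.06, 8.27 and 9.60, so it was 1.80-fold higher after ischemia-reperfusion in wild type and 2.52-fold higher in the knockout-labelled pair. It had the highest ratio of all 47 members in both genotypes. Psmb8, the counterpart of Psmb5, had 8.20, 8.54, 8.22 and 8.82, which is 1.27-fold and 1.51-fold higher. Psmb9, the counterpart of Psmb6, had 7.70, 7.96, 7.78 and 7.43, with ratios of 0.25 and -0.35. Psmb9 was thus above sham in wild type and below it in the knockout-labelled pair, where its array was the lowest of the 4. On chromosome 17 Psmb9, Tap1, Psmb8 and Tap2 follow each other within the MHC region, between H2-DMb1 and H2-Ob, and the neighbours Psmb8 and Psmb9 had opposite signs in the knockout-labelled pair.

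Nearly all cap subunits were above sham after ischemia-reperfusion. In wild type 16 of 17 had a ratio above 0, with a median of 0.38 and 0 past 1.5-fold. In the knockout-labelled pair 17 of 17 were above 0, with a median of 0.55, and 7 of 17 (41.2%) were higher at 1.5-fold, against the 14.6% of all genes given above. For the core the median was 0.35 in wild type and 0.23 in the knockout-labelled pair, with 2 of 14 (14.3%) higher. The gap between cap and core in the knockout-labelled pair depends on the probe sets. With the median over all probe sets of a gene, the cap had a median of 0.38 with 15 of 17 above 0 and 4 higher, and the core one of 0.38 with 12 of 14 above 0 and 1 higher. With plain probe sets only the gap remained, with 0.48 for the cap and 0.23 for the core. It was 0.54 against 0.35 with the median over probe sets above the floor in all arrays.

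Within the cap the 3 subunits of the base that are not ATPases had the highest medians, 0.45 in wild type and 0.73 in the knockout-labelled pair. Psmd1, a large scaffold subunit, had 10.89, 11.34, 10.98 and 11.72 and was 1.37-fold and 1.66-fold higher after ischemia-reperfusion. Psmd2, its large partner, which also binds ubiquitin-like domains, had 11.42, 11.82, 11.56 and 12.25 and was 1.32-fold and 1.62-fold higher. Psmd4, a receptor for ubiquitin chains, had 11.20, 11.74, 11.15 and 11.94 and was 1.45-fold and 1.73-fold higher. All 3 passed 1.5-fold in the knockout-labelled pair and none in wild type. For Psmd4 the other probe sets over the floor gave 0.54 and 0.17 in the knockout-labelled pair, against 0.79 for the one read.

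The 8 lid subunits were all above 0 in the knockout-labelled pair, with a median of 0.56, and 7 of 8 were above 0 in wild type, with a median of 0.29. Psmd11, a lid scaffold subunit, had 11.83, 12.36, 11.71 and 12.52 and was 1.44-fold and 1.75-fold higher, the largest knockout-labelled response in the cap. The median over all Psmd11 probe sets was smaller, with log2 ratios of 0.23 and 0.31. Among the other Psmd11 probe sets, those of high signal gave 0.72, 0.63 and 0.61 in the knockout-labelled pair. Those measured at low signal gave 0.018, -0.0030 and -0.032 there. Psmd14, the enzyme that cuts ubiquitin chains off the substrate, had 11.60, 12.09, 11.63 and 12.22, with ratios of 0.48 and 0.59. For both the 2 ischemia-reperfusion arrays were above the 2 sham arrays. Psmd3, another scaffold subunit, had 10.28, 10.32, 10.35 and 11.02, with ratios of 0.033 in wild type and 0.66 in the knockout-labelled pair. Psmd7, the inactive partner of Psmd14, had 10.19, 10.14, 9.98 and 10.56, with ratios of -0.055 and 0.57. In Psmd3 and Psmd7 the knockout-labelled ischemia-reperfusion array alone stood above the others. Psmd8 resembled them, with 0.12 in wild type and 0.55 in the knockout-labelled pair. Psmd6 had the smallest knockout-labelled ratio of the lid, with signals of 11.68, 11.89, 11.74 and 11.93. Psmd12 and Psmd13 had like ratios in both genotypes, 0.53 and 0.43 for Psmd12 and 0.38 and 0.36 for Psmd13. A lower-signal pair of Psmd13 probe sets gave ratios below 0 in both genotypes.

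The 6 ATPases, which pull the substrate into the core, were all above 0 in both genotypes, with medians of 0.29 in wild type and 0.33 in the knockout-labelled pair. Psmc4 had 11.70, 12.15, 11.75 and 12.35 and was 1.36-fold and 1.52-fold higher, and it was the only ATPase past 1.5-fold. Its second probe set gave 0.38 and 0.63. Psmc2 had the smallest knockout-labelled ratio on the probe set read, with signals of 11.86, 12.07, 11.87 and 11.91, but its other probe set over the floor gave 0.44 against 0.045. Psmc1, Psmc3 and Psmc5 had knockout-labelled ratios of 0.40, 0.35 and 0.32. Psmc6 had 0.38 and 0.12 on the probe set read, while its other probe sets gave -0.0034 and 0.10 in wild type and -0.96 and -0.73 in the knockout-labelled pair. The direction for Psmc6 in the knockout-labelled pair therefore depends on the probe set.

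Assembly factors were divided in the knockout-labelled pair. In wild type 6 of 7 had a ratio above 0, with a median of 0.26, and in the knockout-labelled pair 4 of 7, with a median of 0.18. Psmg1 and Psmg2 encode the partners of a chaperone that builds the alpha ring. Psmg1 had log2 signals of 10.10, 10.37, 10.26 and 9.79, and its ratios were 0.26 in wild type and -0.47 in the knockout-labelled pair. Psmg2 had 9.99, 9.99, 10.10 and 9.51, with ratios of 0.0053 and -0.58. For both the knockout-labelled ischemia-reperfusion array was the lowest of the 4, and the other Psmg2 probe sets were below 0 there as well, at -0.26 and -0.18. Psmg4, of the second such chaperone, had 9.20, 9.59, 9.23 and 9.69, with ratios of 0.39 and 0.46, and its partner Psmg3 had 0.19 and 0.30. The chaperones of the cap base varied as well: the knockout-labelled ratio was 0.53 for Psmd10, 0.18 for Psmd5 and -0.07 for Psmd9.

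The 3 activators read had ratios above 0 in wild type and close to 0 in the knockout-labelled pair, a difference between genotypes that was not tested. Psme3, the nuclear activator PA28 gamma, had 8.27, 9.06, 8.71 and 8.85 and was 1.73-fold higher in wild type and 1.10-fold in the knockout-labelled pair. Its second probe set gave log2 ratios of 0.52 and 0.48, so the gap between the genotypes depends on the probe set. Psme4, the activator PA200, had 11.70, 12.18, 11.92 and 11.85, with ratios of 0.49 and -0.066. All 5 of its probe sets over the floor were above 0 in wild type, from 0.27 to 0.52, and they ran from -0.60 to 0.50 in the knockout-labelled pair. Psme1, the alpha chain of the interferon-induced activator PA28, had 10.71, 11.05, 10.73 and 10.71, with ratios of 0.34 and -0.023. Psmf1, which encodes an inhibitor of the core, had 0.13 and 0.32.

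Of the name matches, Psmc3ip, a partner of meiotic recombination proteins, had 6.68, 6.88, 6.94 and 6.40, close to the floor, with ratios of 0.19 and -0.54. Psme3ip1, named for binding PA28 gamma, had 0.0051 and 0.12.

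**Figure D3:**
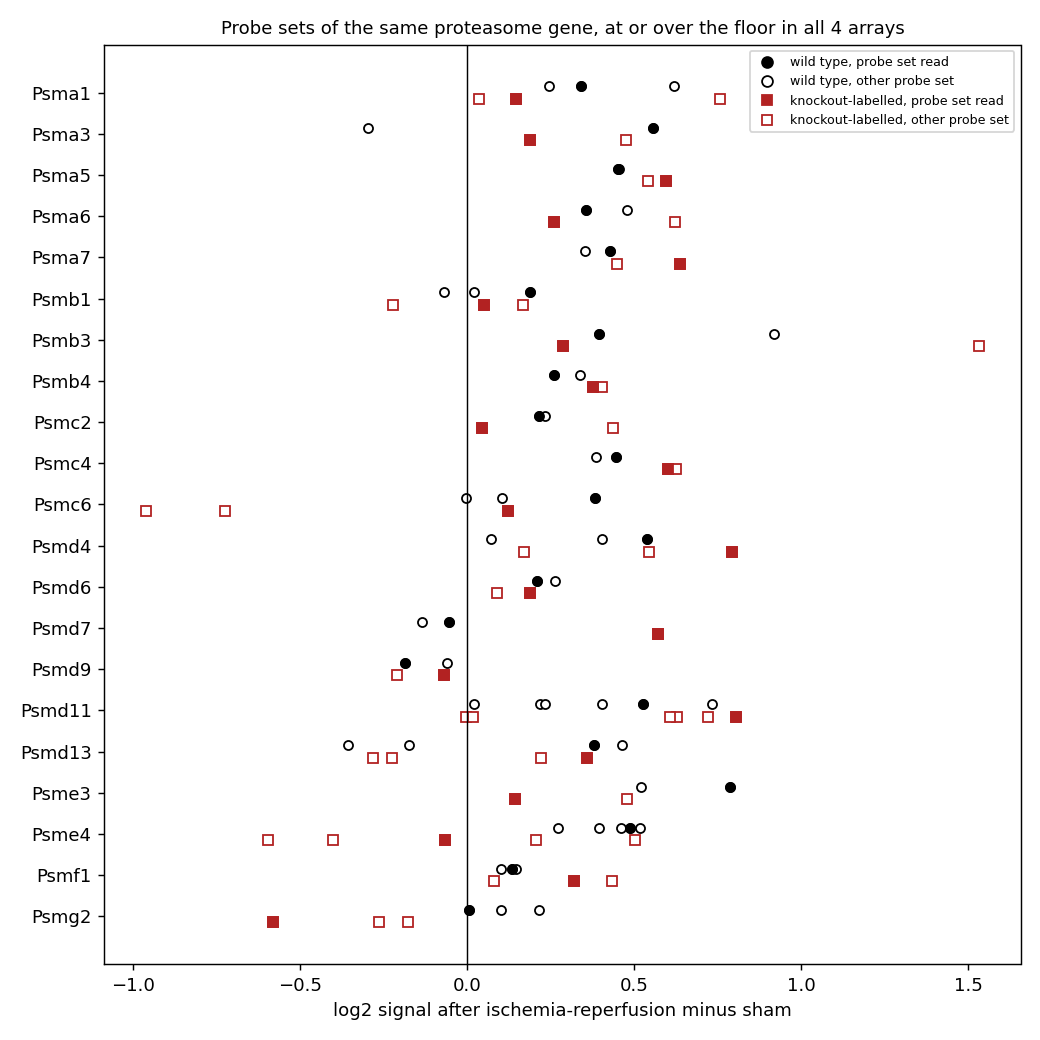
Log2 ratios of ischemia-reperfusion over sham for each probe set of the 21 proteasome genes with 2 or more probe sets at or over the floor in all 4 arrays; filled symbols are the probe set read for the gene. Probe sets lie close together for Psma5, Psmb4 and Psmc4 and far apart for Psmb3, Psmc6 and Psme4.

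In wild type 17 of 22 members with several usable probe sets had ratios of 1 sign, and in the knockout-labelled pair 16 of 21. Those of mixed sign in wild type were Psma3, Psmb1, Psmc6, Psmd13 and Psmf1, and in the knockout-labelled pair Psmb1, Psmc6, Psmd11, Psmd13 and Psme4. The Psmd11 probe sets below 0 lay near the floor, with ratios of -0.0030 and -0.032.

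The sham arrays of the genotypes were close for these genes. The median knockout-labelled minus wild-type ratio was 0.065, with 38 of 47 members above 0, and 0 were higher and 0 lower at 1.5-fold. Of all genes, 59.1% were above 0, 1.02% passed 1.5-fold upward and 2.43% downward, and their median was 0.036. The range ran from -0.21 for Psmd7 to 0.46 for Psmd13. Of the members with several probe sets only 8 of 22 had ratios of 1 sign here, and the SD between probe sets of a member was 0.20.

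Between the ischemia-reperfusion arrays the classes parted. Over all members the median knockout-labelled minus wild-type ratio was 0.099, with 28 of 47 above 0, 1 higher and 0 lower at 1.5-fold. Among all genes 48.8% were above 0, 10.6% were higher and 10.5% lower, so fewer members than genes at large differed by that much. The cap had a median of 0.20 with 14 of 17 above 0, and its 11 subunits other than ATPases were all above 0 on the probe sets read, from 0.042 for Psmd12 to 0.70 for Psmd3, the single member past 1.5-fold. Of these 11, 9 were above 0 with each array centred on its median and 10 with the median over probe sets, and with plain probe sets it was 6 of 8. The core had a median of -0.069 with 6 of 14 above 0, from -0.33 for Psmb7 to 0.27 for Psma7. The core's median ran from -0.13 to 0.046 over the processing alternatives, so its sign depends on them, while that of the cap ran from 0.13 to 0.25. On the probe sets read, the lowest members were Psmg1 at -0.58, Psmb9 at -0.53, Psmg2 at -0.48 and Psmc3ip at -0.48. Other probe sets gave -1.005 and -0.89 for Psmc6 and ran from -0.78 to -0.19 for Psme4. Psmb10, which has a single probe set, was 0.54 higher on the log2 scale. The SD between probe sets of a member was 0.24 here, which holds no spread between mice or arrays.

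**Figure D4:**
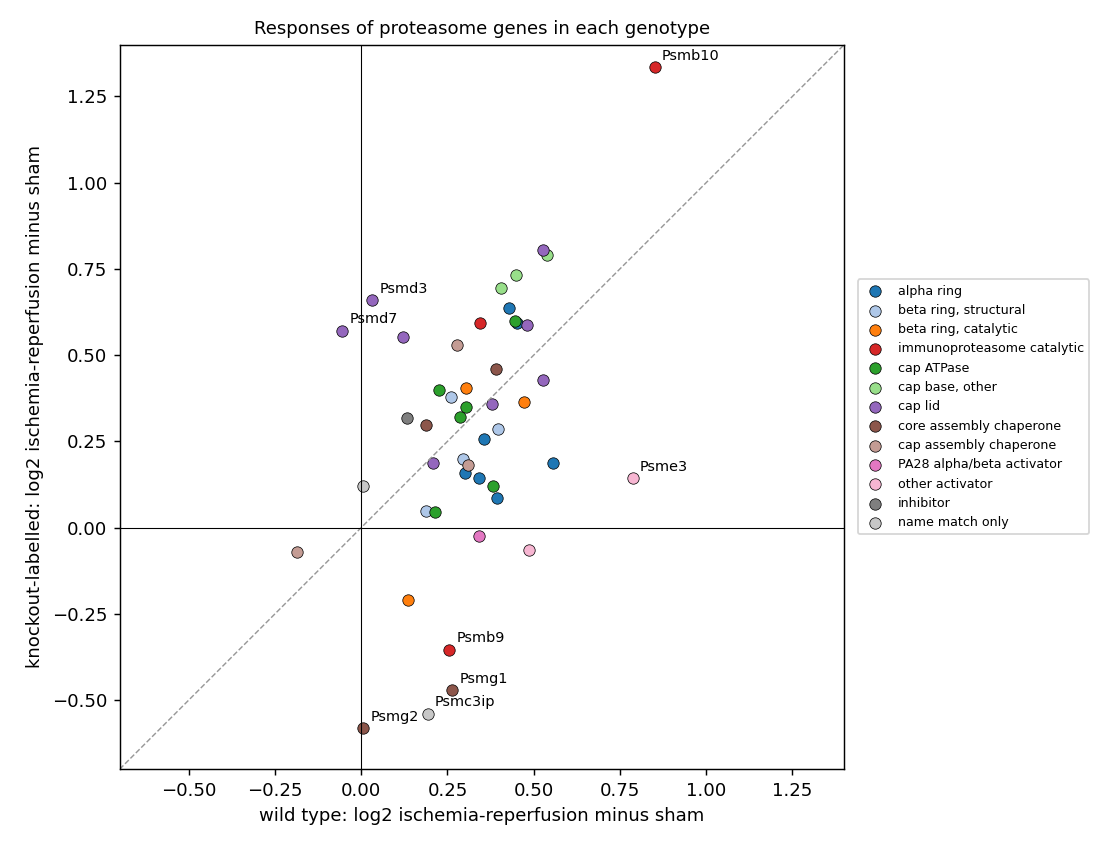
Log2 ratio of ischemia-reperfusion over sham in the knockout-labelled pair (vertical) against that in wild type (horizontal) for the 47 measured proteasome genes, marked by role, on equal scales. Of these, 38 lie above 0 on both axes, and 7, namely Psmg1, Psmg2, Psmb7, Psmb9, Psme1, Psme4 and Psmc3ip, are above 0 in wild type and below 0 in the knockout-labelled pair.

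The responses of the genotypes share no array. Both were above 0 for 38 of 47 members (80.9%), against 33.6% of all genes. Across the members the ratios correlated with Pearson r = 0.44 and Spearman rho = 0.42 (n = 47 genes, which are not independent replicates and share the arrays). Over all genes r was 0.55 and rho 0.49, and over the 31 core and cap genes 0.27 and 0.40. The spread over members was larger in the knockout-labelled pair, with an SD of 0.37 against 0.19 in wild type, as it was over all genes, with 0.78 against 0.46. The difference between the responses had a median of 0.033 over members, with 24 of 47 above 0, 2 higher and 5 lower at 1.5-fold. Of all genes 46% had a difference above 0, 11.1% were higher and 12.5% lower. The 2 higher were the lid genes Psmd3 at 0.63 and Psmd7 at 0.63. The 5 lower were Psmg1 at -0.74, Psmc3ip at -0.73, Psme3 at -0.64, Psmb9 at -0.61 and Psmg2 at -0.59. By class the median difference was 0.15 for the cap and -0.11 for the core. With the median over all probe sets of a gene it was 0.087 and -0.0012, and with plain probe sets only 0.20 and -0.097. This gap too depends on the probe set read. None of these differences has a replicate check.

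Genes of other proteasome components and of the pathway around them were mixed. Values given in pairs here are log2 ratios, first in wild type and then in the knockout-labelled pair. The counts at 1.5-fold for this and the following lists stand against 5.98% of all genes higher and 6.29% lower in wild type. In the knockout-labelled pair these shares of all genes were 14.6% and 14.5%. Of 16 other components and cofactors 11 were read, with a median ratio of 0.29 in wild type, with 1 higher, and of 0.15 in the knockout-labelled pair, with 3 higher and 1 lower. Usp14, a cap-bound ubiquitin protease, had 9.74, 10.37, 9.81 and 10.58 and was 1.55-fold and 1.70-fold higher. Txnl1, a cap-bound thioredoxin-like protein, had ratios of 0.57 and 0.62. Zfand2a, a stress-induced cap-binding protein, had 0.0019 in wild type and 1.06 in the knockout-labelled pair. Fbxo7, an adaptor that binds the inhibitor Psmf1, had -0.13 and -1.02. Pomp, which helps to join the core's rings, had 0.29 and 0.41. Sem1, a small lid subunit outside the naming rule, had -0.049 and 0.15, less than the lid's medians.

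Of 14 genes of NRF1 activation and of the p97 extraction machinery 12 were read, with medians of 0.025 in wild type and 0.13 in the knockout-labelled pair, 1 higher in each and 1 lower in the latter. Nfe2l1 itself had 9.99, 9.63, 9.82 and 10.07, with ratios of -0.35 in wild type and 0.25 in the knockout-labelled pair. Its wild-type ischemia-reperfusion array was thus the lowest of the 4, where most members were above sham; NRF1 is controlled largely after transcription, and its protein was not measured. Vcp, the p97 ATPase, had 0.38 and 0.57. Hcfc1 had 0.61 and 0.55, Fbxw7 0.0099 and 0.86, and Hsp90b1, a chaperone of the endoplasmic reticulum, -0.092 and -0.83. Of 8 ubiquitin genes and activating enzymes only Uba3, Uba6 and Nedd8 were read, with medians of 0.075 in wild type and -0.26 in the knockout-labelled pair and 0 past 1.5-fold in either response. Of 18 shuttle factors and chain enzymes 17 were read, with medians of 0.063 in wild type and 0.32 in the knockout-labelled pair, where Otub1 at 0.63 was the 1 gene past 1.5-fold.

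Genes that work with the immunoproteasome also differed in both directions. Of 13 genes of MHC class I antigen processing 12 were read, with medians of -0.040 in wild type, with 2 higher, and 0.21 in the knockout-labelled pair, with 2 higher and 1 lower. Tap1, the peptide transporter beside Psmb9, had 0.60 and 0.22. Erap1, which trims the peptides, had 0.84 and 1.21, and Nlrc5, the MHC class I transactivator, had -0.0026 and 1.22. Pdia3 had -0.30 and -1.18, and B2m, the MHC light chain, -0.12 and -0.30. Of 22 interferon response genes 19 were read, a list that holds 4 of the members, and their medians were 0.14 in wild type and 0.0027 in the knockout-labelled pair. Cxcl10 had 1.46 and 0.028, Gbp3 1.35 and 0.21, and Gbp2 0.34 and 1.04. In wild type 3 interferon genes (16.7%) were higher and 2 (11.1%) lower at 1.5-fold, against 5.98% and 6.29% of all genes. In the knockout-labelled pair it was again 3 and 2, against 14.6% and 14.5% of all genes. Psmb10 was among the higher genes in both genotypes and Psmb8 in the knockout-labelled pair, so these counts partly restate the members.

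**Figure D5:**
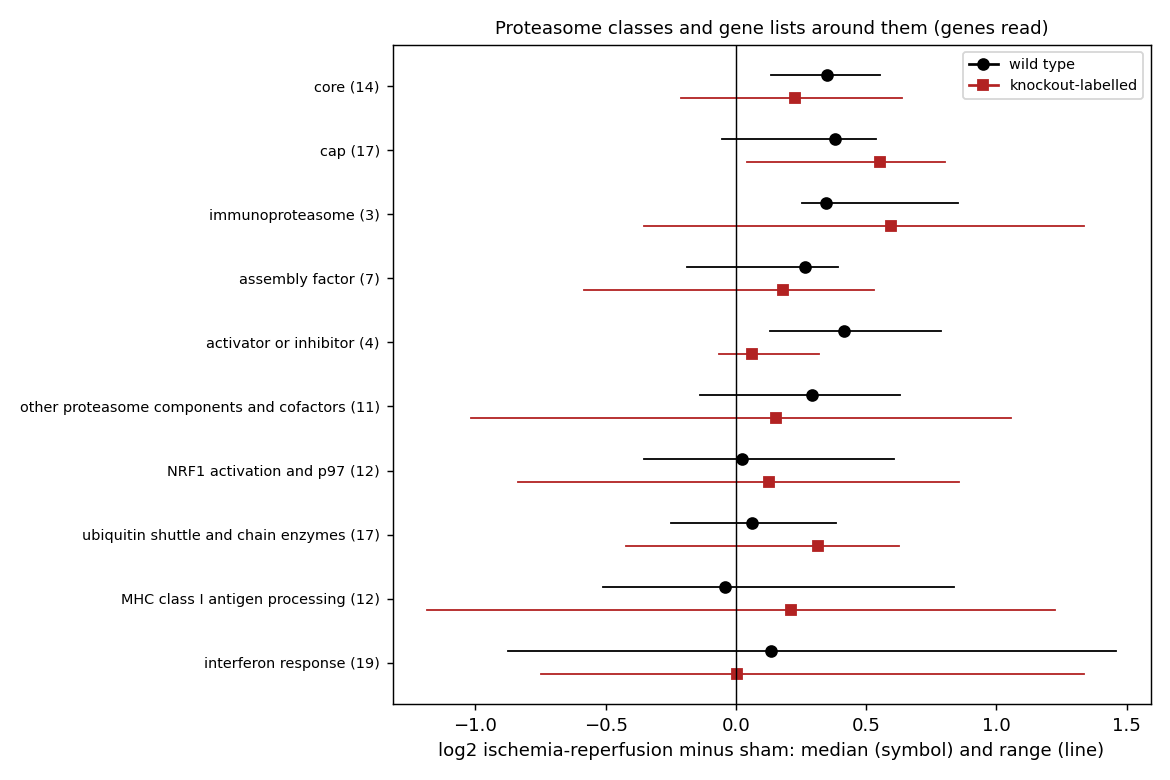
Log2 ratios of ischemia-reperfusion over sham by class of proteasome gene and by pathway list, in wild type and in the knockout-labelled pair; symbols are medians, lines run from the lowest to the highest gene, and the number of genes read stands in brackets. The medians are 0.35 for the core and 0.38 for the cap in wild type and 0.23 and 0.55 in the knockout-labelled pair. Those of the pathway lists drawn lie between -0.040 and 0.32, a range that holds the core's knockout-labelled median. The list of ubiquitin genes, with 3 genes read, is not drawn.

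Marker genes of several cell types differed between the arrays as well, and in whole tissue fewer cells of a type and less RNA per cell cannot be told apart. Summed linear signals of 11 kidney epithelium markers were 89538, 71749, 83752 and 47734. The 8 tubular injury markers summed to 4352, 32703, 2860 and 57276, with Lcn2, Havcr1 and Krt20 highest in the knockout-labelled ischemia-reperfusion array. The 16 leukocyte markers read summed to 4494, 2728, 4661 and 4032, with 4 or 5 below the floor per array. This sum leans on Csf1r, with log2 signals of 11.34, 9.98, 11.40 and 9.13. In the knockout-labelled ischemia-reperfusion array S100a8 at 10.03 and S100a9 at 9.92 were above it. The leukocyte sums therefore do not describe the list as a whole. Of the 13 leukocyte markers measured in the knockout-labelled pair 8 had a ratio below 0, with a median of -0.25. They ran from -2.27 for Csf1r, a macrophage receptor, to 4.31 for S100a8, a neutrophil gene. The 6 adipose markers read summed to 7154, 724, 1549 and 9740, with 0, 4, 4 and 1 below the floor. The part of these cell types in the proteasome values was not tested.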

How the data were processed

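Kidney RNA of 4 groups was measured on 1 Affymetrix array each, pooled from 3 mice. For 45037 probe sets the file gives what its values show to be log2 signals, deposited by the authors and lying between 2.51 and 14.97 with column medians of 6.28 to 6.33. The authors' processing named MAS5, per the submitters' processing notes, with no version or scaling target; 0 sample columns were left unused. Probe sets with 1 gene symbol (34945) were used and 932 with several symbols were not, which leaves out the single probe set naming Psme2. Each gene was read from its probe set with the highest mean signal, avoiding the suffix _x_at where another existed. A floor was set at the 40th percentile of all signals, 5.72 on the log2 scale and 52.8 on the linear scale. A gene counted as measured in a comparison if at or over the floor in 1 of its arrays. The 5 comparisons were log2 ratios, counted at 1.5-fold; no test was made.

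The members and the 10 context lists (137 genes, 115 read) were chosen with earlier results of these data known. Named genes were the active and inducible beta subunits, all 17 members past 1.5-fold in any comparison, the highest and lowest of each subgroup of 4 or more in the knockout-labelled response, and in each list up to 4 genes with the largest ratios plus role genes. Other members named were chosen after their values were seen. Adrm1 was not read under a single symbol. All 49 symbols matched RefSeq by Entrez identifier, and 0 differed. Upstream sequences are RefSeq's on GRCm38.p6. Python 3.11.15, numpy 2.4.6, pandas 2.3.3 and matplotlib 3.10.9 were used, and the ratio code was tested on simulated data. Precision is limited by the number of arrays. Alternatives covered the probe set read, the floor, scaling, the control array, the members and the fold.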

Additional observations from a re-analysis of the deposited data

Results flagged for a closer look

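Some genes lay above sham after ischemia-reperfusion in one genotype and below it in the other; with single arrays these differences were not tested. The knockout-labelled response minus the wild-type response, on the log2 scale, was -0.34 for Psmb7, -0.61 for Psmb9, -0.37 for Psme1, -0.55 for Psme4, -0.74 for Psmg1, -0.59 for Psmg2 and -0.73 for Psmc3ip, all above sham in wild type and below it in the knockout-labelled pair. For Psmd7 it was 0.63, the other way round. Outside the members it was 0.60 for Nfe2l1 and 0.20 for Sem1, both below sham in wild type. The adipose list had a median difference of 4.15, and its part in the proteasome values was not tested. For Psmg2, Psme1 and Sem1 one of the responses was within 0.05 of 0.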

How the results depend on the processing

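Of 178 values of all members under the alternatives 158 stayed within the limits of change and 20 moved. No median changed direction, and for counts a direction was not assessed. The median response ran from 0.27 to 0.36 in wild type and from 0.23 to 0.41 in the knockout-labelled pair; it was 0.035 to 0.064 between sham arrays, 0.041 to 0.14 between ischemia-reperfusion arrays and 0.0051 to 0.092 for the difference of responses. With the median over all probe sets, or with plain probe sets only, 6 members were higher and 1 lower in the knockout-labelled response. Between the ischemia-reperfusion arrays 2 members were then lower with the median and 1 with plain probe sets. With a median over probe sets above the floor, chosen after seeing the data, 2 were lower in each of these comparisons. With 50 added to the linear signal, the difference of responses had 1 lower. Quantile normalization gave 1 lower in the knockout-labelled response, and centring gave 1 lower there and 1 between the ischemia-reperfusion arrays. With core and cap subunits only, 0 were higher in wild type, 23 were above 0 between sham arrays, and 0 were lower in the difference of responses. At 2-fold 0 were higher in wild type, 1 in the knockout-labelled response and 0 between ischemia-reperfusion arrays, and the difference of responses had 0 higher and 0 lower. The cause of these moves was not tested, apart from the fewer genes or the stricter fold that the last settings count. Of 715 values of single genes 707 stayed and 8 moved, for Psmd11, Psme3 and Psmc3ip. The single genes compared were the 17 members past 1.5-fold in any comparison and the active and inducible beta subunits. Psmb3, Psmc6 and Psme4, whose probe sets lay far apart, were not among them. A value stayed if it moved by no more than the SD between probe sets over all genes. Genes with a single probe set cannot move with the probe set read. No paired analysis was possible because each group is 1 array with no replicate numbers, and no replicate could be left out. Pooling and the number of arrays limit every value.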
